A study of Homo sapiens with 48 samples.

Results

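The genes described here encode the subunits, assembly chaperones and activators of the proteasome. They were taken as every gene symbol in the files that is PSMA, PSMB, PSMC, PSMD, PSME, PSMF or PSMG followed by a number, which gave 48 of 24462 symbols. Of these, 46 passed the filter on low counts and were tested among 15642 genes. The other 2, PSMA8 and PSMB11, are subunits known from testis and thymus. Each had counts in 2 of the 48 libraries, with at most 2 counts for PSMA8 and 4 for PSMB11. The 46 tested genes comprise 7 genes of the alpha ring and 7 of the constitutive beta ring of the 20S core particle, 6 ATPases and 11 other subunits of the 19S cap, and 7 assembly chaperones. The remaining 8 are the 5 genes of the immunoproteasome (PSMB8, PSMB9, PSMB10, PSME1 and PSME2), the activators PSME3 and PSME4, and the inhibitor PSMF1.

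The proteasome is the protease complex that degrades ubiquitin-tagged proteins. Its 20S core is a barrel of alpha and beta rings in which PSMB5, PSMB6 and PSMB7 carry the active sites, and the 19S cap binds ubiquitin chains, unfolds substrates with its ring of ATPases and feeds them into the core. Interferon-inducible PSMB8, PSMB9 and PSMB10 replace those 3 subunits in the immunoproteasome, which shapes the peptides shown on class I molecules and is abundant in monocytes. When proteasomes are overloaded or blocked, the transcription factor NFE2L1 is known to raise many proteasome subunit genes together.

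The cells were THP-1, a human monocytic leukemia line. All groups were sampled at 12 h, with 3 libraries each. The 12 chemicals were mercuric chloride, LPS (lipopolysaccharide, a bacterial cell wall component), dexamethasone and prednisolone (both glucocorticoids), cyclosporine and tacrolimus (both calcineurin inhibitors), the JAK inhibitor tofacitinib, the nucleoside analogues aciclovir and ribavirin, the detergent sodium lauryl sulfate, the isoflavone genistein and benzoic acid. Per the labels each chemical was dosed at its CV90, and no concentration is given in the sources used here. Controls were untreated cells and cells with the vehicle dimethyl sulfoxide (DMSO), each in series 1 and series 2. The protocol states 0.1% DMSO, whereas sample titles put the vehicle of series 1 at 0.1, 0.2 and 0.3% and that of series 2 at 0.4, 0.5 and 0.6%. The labels do not tie a treatment to a series, so each treatment was tested against both vehicle series, and a gene is said to have risen or fallen only where it differed from both in the same direction at an adjusted p under 0.05. Libraries held 5952817 to 11496950 counts. All 8 monocyte/macrophage markers were detected, at a summed 364 to 788 CPM (counts scaled to library size with TMM factors, a trimmed mean that corrects for composition).

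Some libraries stood apart. Dexamethasone replicate 3 and benzoic acid replicate 3 differed from their partners with a chi-square per degree of freedom of 29.4 to 43.1, against 3.51 and 2.97 between the other two of each group. LPS replicate 3 differed less from its partners, at 14.4 and 8.35, against 5.35 between those partners. The mercuric chloride libraries had counts in 18748 ± 211 symbols (SD, n = 3), against group means of 16310 to 16945 elsewhere, and a mean TMM scaling factor of 0.763. They also held summed fibroblast markers at 29.6 to 32.2 CPM (vehicle 0 to 1.14) and erythroid markers at 14.7 to 22.1 CPM (vehicle 0.183 to 0.667). Over all libraries COL1A1 reached 31.6 CPM, while COL1A2, COL3A1, DCN and LUM reached at most 0.336, 1.22, 4.98 and 1.30 CPM. HBA2 reached 16.3 CPM over all libraries. Epithelial markers summed to 1.85 to 17 CPM (vehicle 0.630 to 1.74), B cell markers to 2.37 to 4.89 CPM (vehicle 3.94 to 4.86) and T cell markers to 0 to 0.719 CPM (vehicle 0 to 0.106, CD3E at 0 throughout). Their monocyte/macrophage markers summed to 364 to 405 CPM (vehicle 576 to 745). All these marker values are without TMM factors. The part of these features in the results with mercuric chloride was not tested. In bulk RNA, fewer cells of a type and less RNA per cell cannot be told apart.

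The spread of each gene over the study was taken from its group means. The ratio of the highest to the lowest of the 16 group means had a median of 1.61 and a range of 1.16 (PSMD9) to 3.72 (PSMB7) over the 46 genes. Mercuric chloride gave the highest group mean for 22 genes and the lowest for 6. Without mercuric chloride the median ratio was 1.43, and 2 genes exceeded a ratio of 2 in place of 10.

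**Figure D1:**
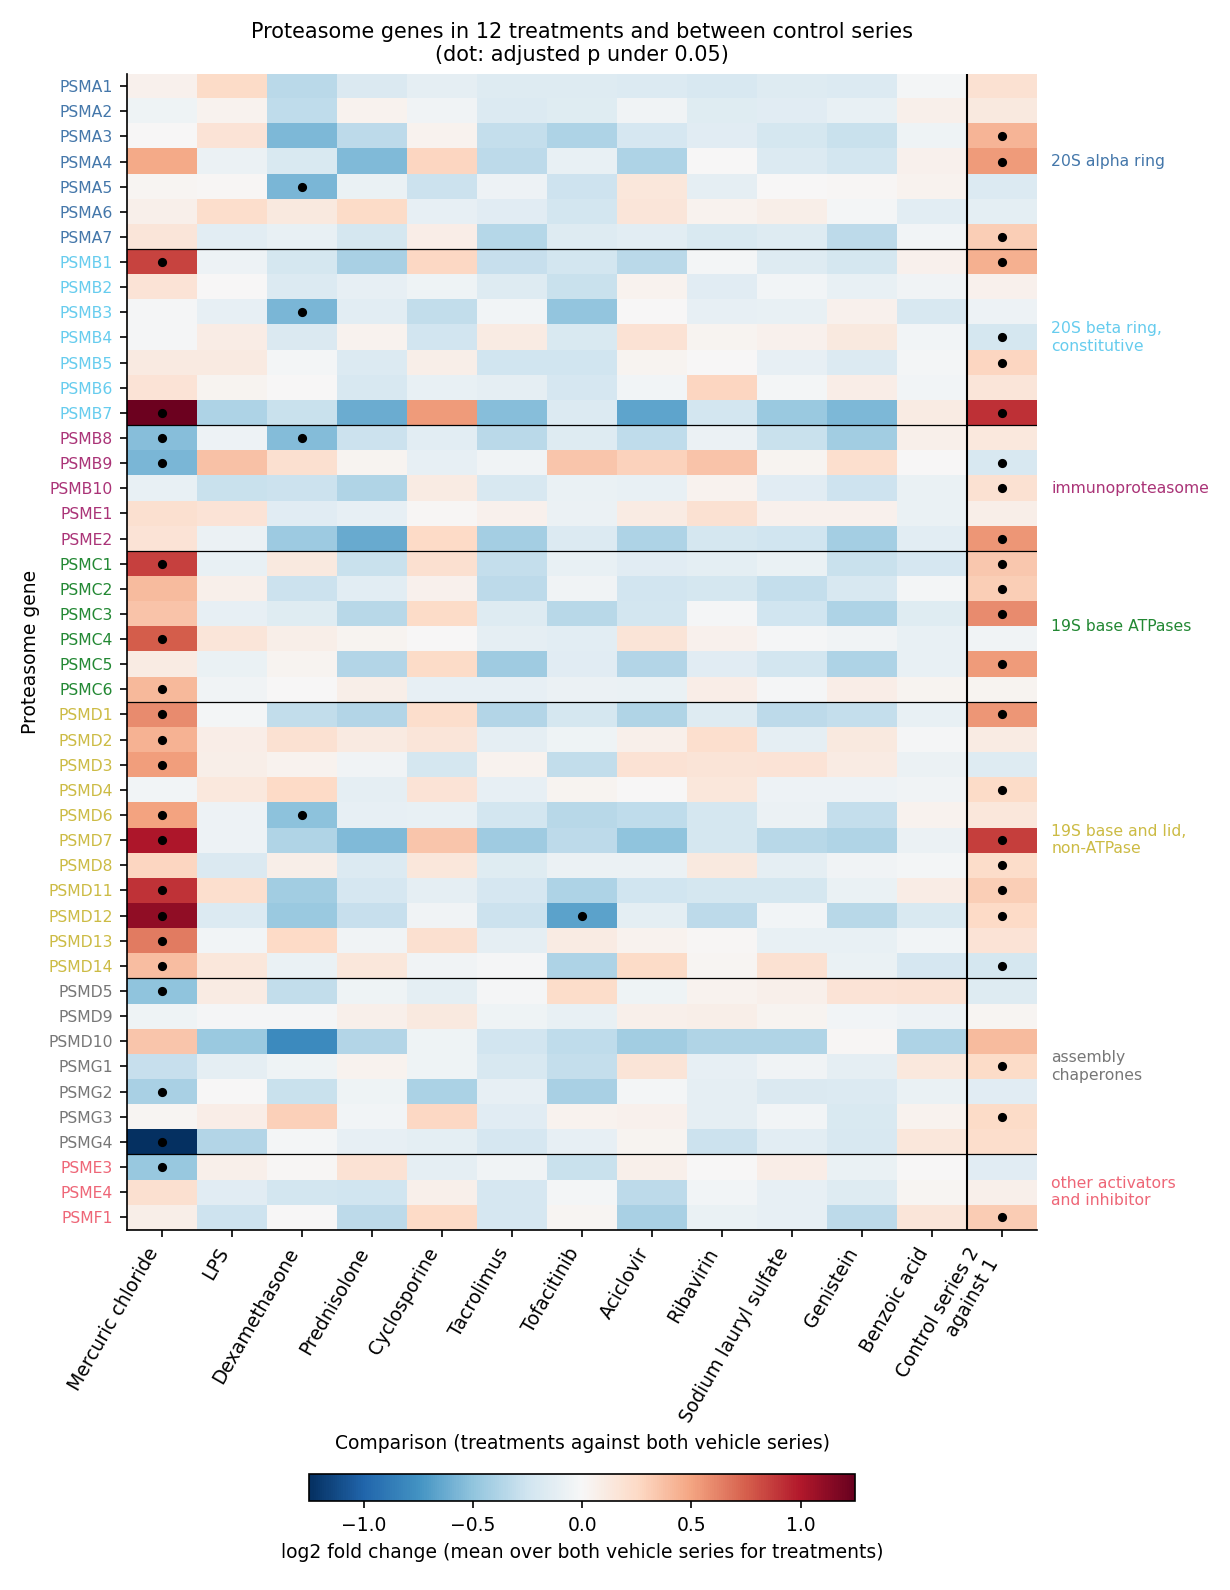
The heat map shows the log2 fold change of the 46 tested proteasome genes (rows, coloured by subgroup) in 12 treatments against vehicle and between the control series (columns), with a dot where the adjusted p was under 0.05. With TMM scaling the mercuric chloride column has 14 rises and 6 falls (7 and 16 with library totals), the control series column 21 and 3, and the other 11 treatments 5 falls in all.

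With mercuric chloride, a metal salt that binds thiols of proteins, 12 of the 17 genes of the 19S cap rose with TMM scaling (5 with library totals) while the immunoproteasome subunits PSMB8 and PSMB9 fell. Of the 46 genes, 14 rose and 6 fell, while 41.9% of all genes tested were called, 21.8% higher and 20.1% lower. These counts and shares are with TMM scaling, and shares of all genes called under the other scalings are not given here. With median-of-ratios scaling 16 rose and 4 fell, and with library totals 7 rose and 16 fell. With TMM the rises covered 12 of the 17 genes of the 19S cap (9 of 11 non-ATPase subunits and 3 of 6 ATPases), with none lower and a median log2 change of 0.50. They covered 2 of the 14 constitutive 20S genes, whose median was 0.09, and 0 of the 5 immunoproteasome genes. The median was 0.17 over all 46 genes and -0.01 over all genes tested. All 3 mercuric chloride libraries lay above all 6 vehicle libraries for 19 proteasome genes and below them for 6, against 26.2% and 24.4% of all genes.

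Among the non-ATPase subunits of the cap, the change was largest in PSMD12, a structural subunit of the lid. Its level was 150, 159 and 170 CPM in the mercuric chloride libraries, 71.9, 62.5 and 66.6 CPM in vehicle series 1 and 81.5, 81.8 and 82.6 CPM in vehicle series 2. The log2 change was 1.11 (SE 0.10, adjusted p = 2.31e-09), and none of the other 45 libraries exceeded 84.2 CPM. PSMD11, another lid subunit, reached 370, 406 and 440 CPM against 207, 207 and 184 CPM in series 1 and 248, 239 and 228 CPM in series 2, a log2 change of 0.90 (SE 0.13, adjusted p = 4.13e-05). For both genes the groups did not overlap. PSMD7, the partner of the deubiquitinase PSMD14 in the lid, reached 347, 361 and 380 CPM. Its vehicle libraries were split, with 134, 131 and 133 CPM in series 1 and 261, 240 and 237 CPM in series 2, so that its log2 change was 1.45 against series 1 and 0.56 against series 2 (mean 1.01, adjusted p = 1.37e-05). The further rises in this set were PSMD13 (0.65), PSMD1 (0.59), PSMD3 (0.52), PSMD6 (0.50), PSMD2 (0.43) and PSMD14 (0.39). PSMD4, a ubiquitin receptor of the cap, had a log2 change of -0.03 (95% interval -0.18 to 0.12), and PSMD8 had 0.27 (adjusted p = 0.286).

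In the ATPase ring, PSMC1 had 163, 181 and 185 CPM with mercuric chloride, 87.7, 85.9 and 86.1 CPM in vehicle series 1 and 109, 116 and 109 CPM in series 2 (log2 change 0.85, SE 0.08, adjusted p = 1.01e-07). PSMC4 had 265, 304 and 274 CPM against 181, 155 and 182 CPM and 164, 159 and 156 CPM (0.76, SE 0.07, adjusted p = 1.06e-09). PSMC6 moved less, from 67.8, 76.6 and 65.0 CPM in series 1 and 69.2, 71.0 and 79.8 CPM in series 2 to 95.0, 89.8 and 101 CPM (0.41, SE 0.10, adjusted p = 0.005). In none of the 3 did a treated library fall among the vehicle libraries. The other ATPases did not pass. PSMC2 was at 0.40 (adjusted p = 0.139), PSMC3 at 0.36 and PSMC5 at 0.10, and the last of these had 0.36 against series 1 and -0.16 against series 2.

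Of the core particle, PSMB7 and PSMB1 rose. PSMB7, the trypsin-like subunit, had 305, 298 and 337 CPM with mercuric chloride, 105, 91.0 and 86.3 CPM in vehicle series 1 and 186, 197 and 185 CPM in series 2. Its log2 change of 1.23 (SE 0.11, adjusted p = 1.06e-05) was the largest of all 46 genes, and it was 1.74 against series 1 and 0.73 against series 2. PSMB1, a non-catalytic beta subunit, had 882, 864 and 967 CPM against 436, 450 and 420 CPM and 573, 587 and 597 CPM (0.84, SE 0.08, adjusted p = 1.06e-07). The mercuric chloride libraries lay above every other library of the study for both genes. PSMB5, the chymotrypsin-like subunit, did not pass, with 140, 141 and 169 CPM against vehicle levels of 124 to 159 CPM (0.11, 95% interval -0.03 to 0.26). PSMB6, the caspase-like subunit, had 247, 245 and 262 CPM against 205 to 243 CPM (0.17, 95% interval -0.01 to 0.35, adjusted p = 0.508), just above the vehicle libraries. None of the 7 alpha ring genes passed, at log2 changes from -0.05 (PSMA2) to 0.47 (PSMA4). PSMA4 lay above all vehicle libraries, at 0.80 against series 1 and 0.14 against series 2.

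**Figure D2:**
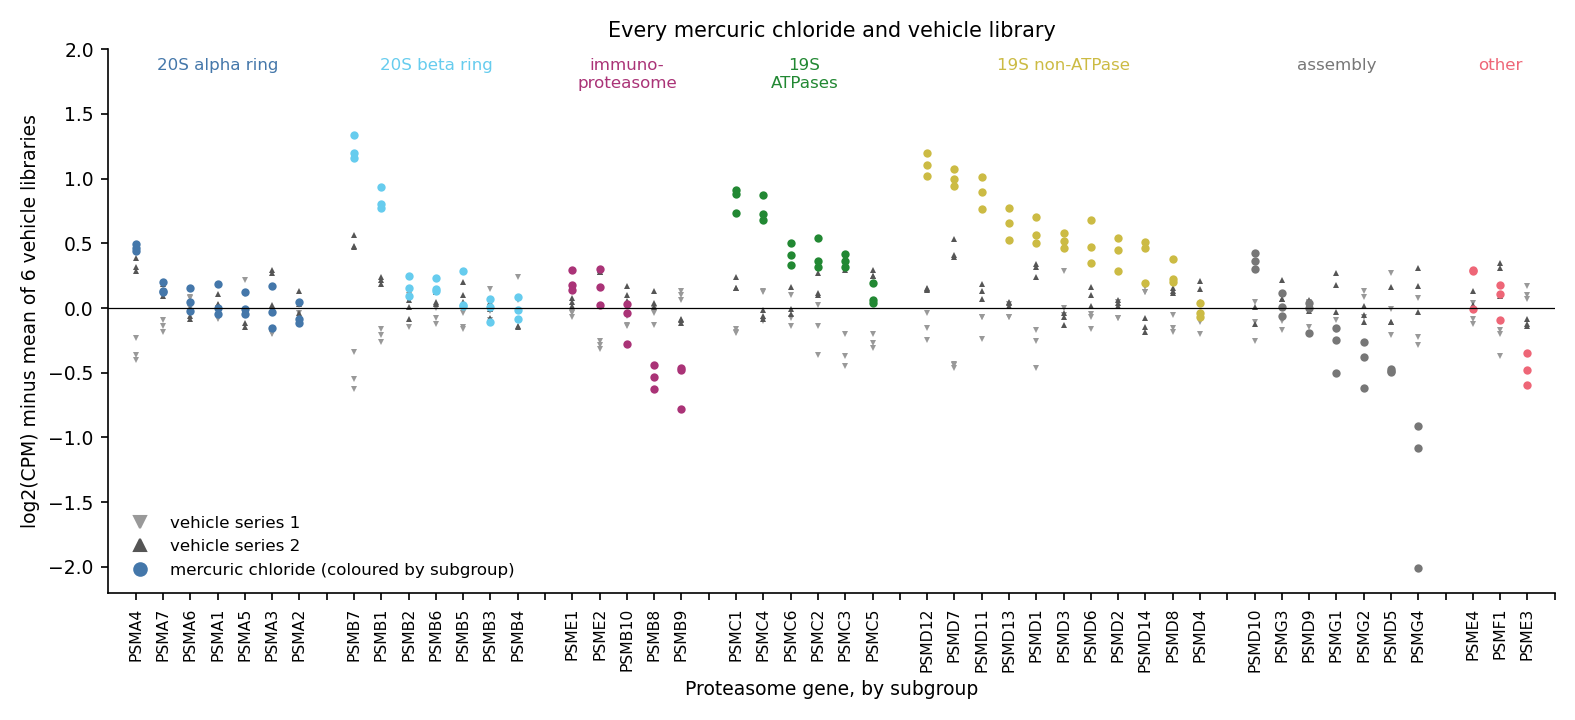
For each of the 46 genes (x axis, grouped by role) the plot shows log2 CPM minus the mean of the 6 vehicle libraries (y axis) in the 3 mercuric chloride libraries (circles), the 3 of vehicle series 1 and the 3 of series 2 (triangles). Most 19S genes sit above both triangles, PSMB7 and PSMB1 stand out in the beta ring, and PSMG4, PSMB8 and PSMB9 sit below.

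Genes for assembly fell or did not pass. PSMG4, a chaperone that helps to build the alpha ring, had 10.7, 5.01 and 9.49 CPM against 21.2, 17.2 and 16.5 CPM in series 1 and 19.7, 22.6 and 24.9 CPM in series 2 (log2 change -1.25, SE 0.18, adjusted p = 1.31e-05). This was the largest fall, and the 3 libraries lay below all 45 others. PSMD5, a chaperone of the 19S base, had 11.5, 11.3 and 11.4 CPM against vehicle levels of 13.8 to 19.2 CPM (-0.50, adjusted p = 0.0351). PSMG2, the partner of PSMG1 in alpha ring assembly, had 51.1, 39.9 and 47.3 CPM against 56.9 to 67.3 CPM (-0.41, adjusted p = 0.0183). PSMD9, PSMD10, PSMG1 and PSMG3 did not pass, with log2 changes of -0.05, 0.35, -0.29 and 0.02. Of the remaining activators and the inhibitor, PSME3, the nuclear activator PA28 gamma, fell, with 76.6, 90.9 and 82.8 CPM against 130, 121 and 124 CPM in series 1 and 105, 109 and 106 CPM in series 2 (-0.47, adjusted p = 0.00218). PSME4 (0.20) and PSMF1 (0.07) did not pass.

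In the immunoproteasome set 2 genes fell and none rose. PSMB8 had 145, 128 and 136 CPM with mercuric chloride against 192, 196 and 180 CPM in series 1 and 198, 202 and 216 CPM in series 2 (log2 change -0.53, SE 0.11, adjusted p = 0.00218). PSMB9 had 68.2, 68.9 and 55.5 CPM against 99.5, 104 and 102 CPM and 87.8, 89.0 and 89.7 CPM (-0.57, SE 0.09, adjusted p = 2.48e-04). Neither gene overlapped with vehicle, and PSMB9 was below its 81.4 to 137 CPM in all other 45 libraries. PSMB10 did not pass. It had 182, 147 and 173 CPM against 162 to 200 CPM, a log2 change of -0.09 (95% interval -0.24 to 0.06). The PA28 subunits PSME1 and PSME2, which form an activator ring on the core, had log2 changes of 0.20 (adjusted p = 0.13) and 0.17 (adjusted p = 1), and PSME2 had 0.46 against series 1 and -0.11 against series 2.

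Ratios between genes within a library do not depend on scaling. The summed counts of PSMB8, PSMB9 and PSMB10 divided by those of PSMB5, PSMB6 and PSMB7 were 0.474 to 0.571 in the 3 mercuric chloride libraries and 0.724 to 1.13 in the other 45, with no overlap. The ratio of PSMB10 to its counterpart PSMB7 was 0.495 to 0.598 against 0.876 to 2.07, and that of PSMB9 to PSMB6 was 0.212 to 0.281 against 0.347 to 0.655. The ratio of PSMB8 to PSMB5 was 0.804 to 1.03 against 0.635 to 2.00, where the 0.635 was dexamethasone replicate 3, and without that library the lowest of the others was 1.08. Summed 19S genes over summed constitutive 20S genes gave 1.06 to 1.14 with mercuric chloride and 0.928 to 0.980 in the 6 vehicle libraries. Of the other libraries only dexamethasone replicate 3, at 1.27, was as high.

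**Figure D3:**
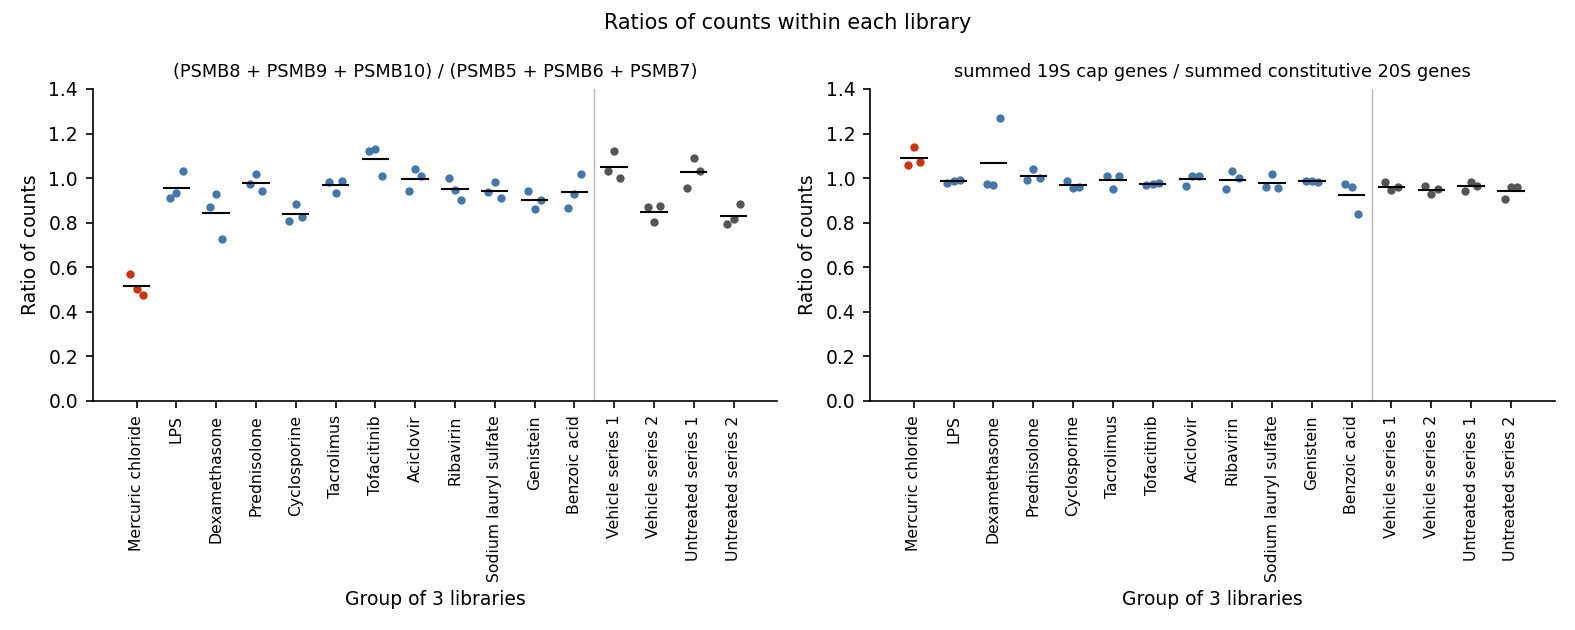
Each point is 1 library and each line the mean of 3, over the 16 groups (x axis), for the ratio of counts (y axis) of immunoproteasome to constitutive catalytic subunits (left) and of 19S to constitutive 20S genes (right). The mercuric chloride libraries at 0.474 to 0.571 lie below all others in the left panel, and dexamethasone replicate 3 stands apart at 1.27 in the right panel.

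The direction of the smaller changes with mercuric chloride depends on scaling. With library totals in place of TMM factors the median of all genes was -0.41, and 7 proteasome genes rose and 16 fell. These were 5 higher and 1 lower in the 19S cap, 2 higher and 5 lower among constitutive 20S genes, 3 lower in the immunoproteasome set, 6 lower among assembly chaperones, and PSME3. Set against that median, the 19S cap was higher by 0.51 and the constitutive 20S genes by 0.10. A change of scaling shifts all genes by nearly the same amount, so these differences match those with TMM by construction. They are therefore no check on the choice of scaling. The share of all genes called with library totals is not given here, so the counts cannot be set against it. Under TMM, median-of-ratios and total scaling alike, 7 genes rose (PSMB1, PSMB7, PSMC1, PSMC4, PSMD11, PSMD12 and PSMD13) and 4 fell (PSMB8, PSMB9, PSME3 and PSMG4). PSMD5 and PSMG2 lost their call under median-of-ratios scaling. With library totals 7 rises were lost, at log2 changes of 0.61 for PSMD7 (adjusted p = 0.0869), 0.19 for PSMD1, 0.12 for PSMD3, 0.10 for PSMD6, 0.03 for PSMD2, 0.01 for PSMC6 and -0.00 for PSMD14. The summed share of counts in proteasome genes was 0.646 to 0.708% with mercuric chloride, inside the 0.622 to 0.767% of the other libraries.

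Genes that work with the proteasome also changed with mercuric chloride. Set against the 21.8% of all genes called higher and 20.1% called lower, 8 of 16 partners outside the subunit families rose and 2 fell. The scaling alternatives were run for the subunit genes and not for these lists. The arsenite-inducible ZFAND2A, which binds the 19S cap under proteotoxic stress, rose from 12.0 ± 1.75 CPM in series 1 and 12.5 ± 1.98 CPM in series 2 to 416 ± 20 CPM (SD, n = 3 each; log2 change 5.08, SE 0.13). ADRM1, a ubiquitin receptor of the cap, rose by 1.32 on the log2 scale, ZFAND5, an activator of the 26S proteasome, by 1.26, and AKIRIN2, which carries proteasomes into the nucleus, by 1.19. The core maturation factor POMP went from 236 ± 11.0 and 309 ± 16.5 CPM to 395 ± 7.90 CPM (0.55, adjusted p = 2.73e-05). Of 10 regulators, 5 rose and none fell. The unfoldase VCP rose by 1.20, UFD1L by 0.82 and SEL1L by 0.72. NFE2L2, the master regulator of the antioxidant response, had 163 ± 14.2 CPM against 111 ± 7.46 and 93.0 ± 7.18 CPM (0.68, adjusted p = 3.39e-06), and NFE2L1 had 54.4 ± 2.11 CPM against 35.8 ± 3.70 and 44.0 ± 2.47 CPM (0.45, adjusted p = 0.0371). In the class I antigen processing list, 5 of 11 fell, among them the peptide transporter genes TAP2 (-1.11) and TAP1 (-0.81), and 3 rose, of which IRF1 (0.76) changed most.

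The promoters of the immunoproteasome genes are shown because this set, in contrast to the cap, is known to be driven by interferon. Windows from 250 bases before to 50 bases after the start site were taken from RefSeq on GRCh38.p14, where 42 of the 48 genes matched by symbol. The core of the interferon response element, GAAA, then any 2 bases, then GAAA, read on both strands, occurred in the windows of 4 of the 5 immunoproteasome genes, 3 of the other 37 proteasome genes and 4.38% of all 27305 genes. The stretches below run 5′ to 3′ on the gene's strand, with the match in capitals.
PSMB8: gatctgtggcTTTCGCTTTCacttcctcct
PSMB10: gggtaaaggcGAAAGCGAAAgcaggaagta
PSME1: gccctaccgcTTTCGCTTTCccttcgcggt
PSME2: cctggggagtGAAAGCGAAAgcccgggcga

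They lie at chr6:32844032-32844061 on the minus strand (PSMB8), chr16:67936852-67936881 on the minus strand (PSMB10), chr14:24136189-24136218 on the plus strand (PSME1) and chr14:24146619-24146648 on the minus strand (PSME2). The match starts 4, 21 and 28 bases before the start site of PSMB8, PSMB10 and PSME2 and 5 bases after that of PSME1. With mercuric chloride, 1 of these 4 genes fell (PSMB8), and PSMB9, which also fell, had no match in its window. The gamma-interferon activated site core TTCNNNGAA was in 8 of the 42 windows, against 9.38% of all genes, and among the immunoproteasome genes only in that of PSMB8.

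The antioxidant response element core, TGACNNNGC on both strands, is shown for cap genes that rose. It was found in 15 of the 42 genes with a window, against 16.1% of all genes. It was held by 4 of the 12 genes with a window that rose with mercuric chloride (PSMD12, PSMD3, PSMD1 and PSMC4) and by 11 of the 28 that were tested and did not rise. The heat shock element GAANNTTC was in none of the 42 and in 8.21% of all genes, and the CCAAT box in 20 of the 42 and in 39.7% of all genes. The match of PSMD12 lies at chr17:67366724-67366752 on the minus strand, 165 bases before the start, and the upstream match of PSMD3 at chr17:39980760-39980788 on the plus strand, 37 bases before it.
PSMD12: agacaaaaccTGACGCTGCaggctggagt
PSMD3: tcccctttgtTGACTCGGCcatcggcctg

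Direct comparisons between treatments use no vehicle, but the labels do not say whether the treatments compared belong to the same series. Against LPS, mercuric chloride was higher for 22 and lower for 6 of the 46 genes, and 57.6% of all genes were called, 29.4% higher and 28.2% lower. The cap had 15 of 17 genes higher and none lower. PSMB7 had 305, 298 and 337 CPM against 88.8, 100 and 117 CPM with LPS (log2 difference 1.62, SE 0.13, adjusted p = 3.08e-14), and the groups were far apart. PSMD12 with LPS had 57.0, 67.2 and 73.5 CPM (difference 1.28), PSMD7 had 163, 165 and 190 CPM (1.07) and PSMD11 224, 262 and 271 CPM (0.68). All lay below their mercuric chloride libraries. Among ATPases, PSMC1 with LPS had 86.5, 100 and 88.8 CPM (0.94), PSMC4 200, 185 and 170 CPM (0.60) and PSMC3 108, 117 and 135 CPM (0.46), with PSMC6 also at 0.46. PSMB1 with LPS had 450, 497 and 502 CPM (0.91). The alpha ring genes PSMA4 (LPS 227, 226 and 247 CPM, mercuric chloride 337, 331 and 344 CPM, 0.53) and PSMA7 (480, 477 and 514 CPM and 586, 582 and 616 CPM, 0.28) were higher with mercuric chloride. So were the chaperone PSMD10 (11.8, 13.2 and 14.8 CPM and 24.3, 23.3 and 22.3 CPM, 0.81), PSME4 (80.8, 81.1 and 80.2 CPM and 88.3, 108 and 109 CPM, 0.34) and PSMF1 (30.2, 32.3 and 31.4 CPM and 42.1, 34.9 and 40.2 CPM, 0.32). PSMB9 had 68.2, 68.9 and 55.5 CPM against 130, 136 and 104 CPM (-0.94, SE 0.10, adjusted p = 1.36e-10), and PSMB8 had 145, 128 and 136 CPM against 169, 191 and 206 CPM (-0.47, adjusted p = 0.00172). PSMB10 (0.19), PSME1 (0.03), PSME2 (0.25), PSMB5 (0.00) and PSMB6 (0.14) did not pass. PSMG4 (LPS 14.0, 15.3 and 17.7 CPM, -0.88), PSMD5 (18.3, 17.3 and 16.1 CPM, -0.60), PSMG2 (69.6, 59.6 and 55.5 CPM, -0.41) and PSME3 (131, 121 and 108 CPM, -0.53) were lower.

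Against cyclosporine, 18 genes were higher and 4 lower with mercuric chloride, beside 50.7% of all genes called, 25.4% higher and 25.3% lower. The cap had 13 of 17 higher. PSMD12 with cyclosporine had 75.0, 69.3 and 72.2 CPM (difference 1.15), PSMD11 210, 221 and 175 CPM (1.00) and PSMD3 323, 296 and 291 CPM against 485, 527 and 504 CPM (0.74). The ATPases PSMC4 (168, 162 and 170 CPM, 0.76), PSMC1 (113, 106 and 118 CPM, 0.65) and PSMC6 (66.7, 69.9 and 63.6 CPM, 0.51) differed too, and none of these groups overlapped. PSMB7 had 189, 192 and 195 CPM with cyclosporine, and its difference was 0.70 (SE 0.13, adjusted p = 1.58e-05). PSMB1 (613, 577 and 626 CPM, 0.58) and PSMB6 (214, 193 and 223 CPM, 0.26) were higher with mercuric chloride and PSMB5 (0.04) did not pass. PSMB8 (169, 197 and 174 CPM, -0.40), PSMB9 (86.5, 88.6 and 91.6 CPM, -0.47), PSME3 (109, 107 and 103 CPM, -0.35) and PSMG4 (22.5, 18.2 and 15.4 CPM, -1.14) were lower and PSME1 was higher (195, 176 and 180 CPM against 159, 155 and 168 CPM, 0.20, adjusted p = 0.0434), while PSMB10 (-0.19) and PSME2 (-0.08) did not pass. All comparisons with mercuric chloride share its 3 libraries. With library totals 8 genes were higher and 20 lower than with LPS, and 8 higher and 21 lower than with cyclosporine. The shares of all genes above are with TMM, and those with library totals are not given here. Among the genes called with TMM, the sign then turned for PSMA7, PSMC2, PSMD2, PSMD14, PSME4 and PSMF1 against LPS and for PSMB4, PSMB6, PSMC2, PSMD2 and PSME1 against cyclosporine.

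**Figure D4:**
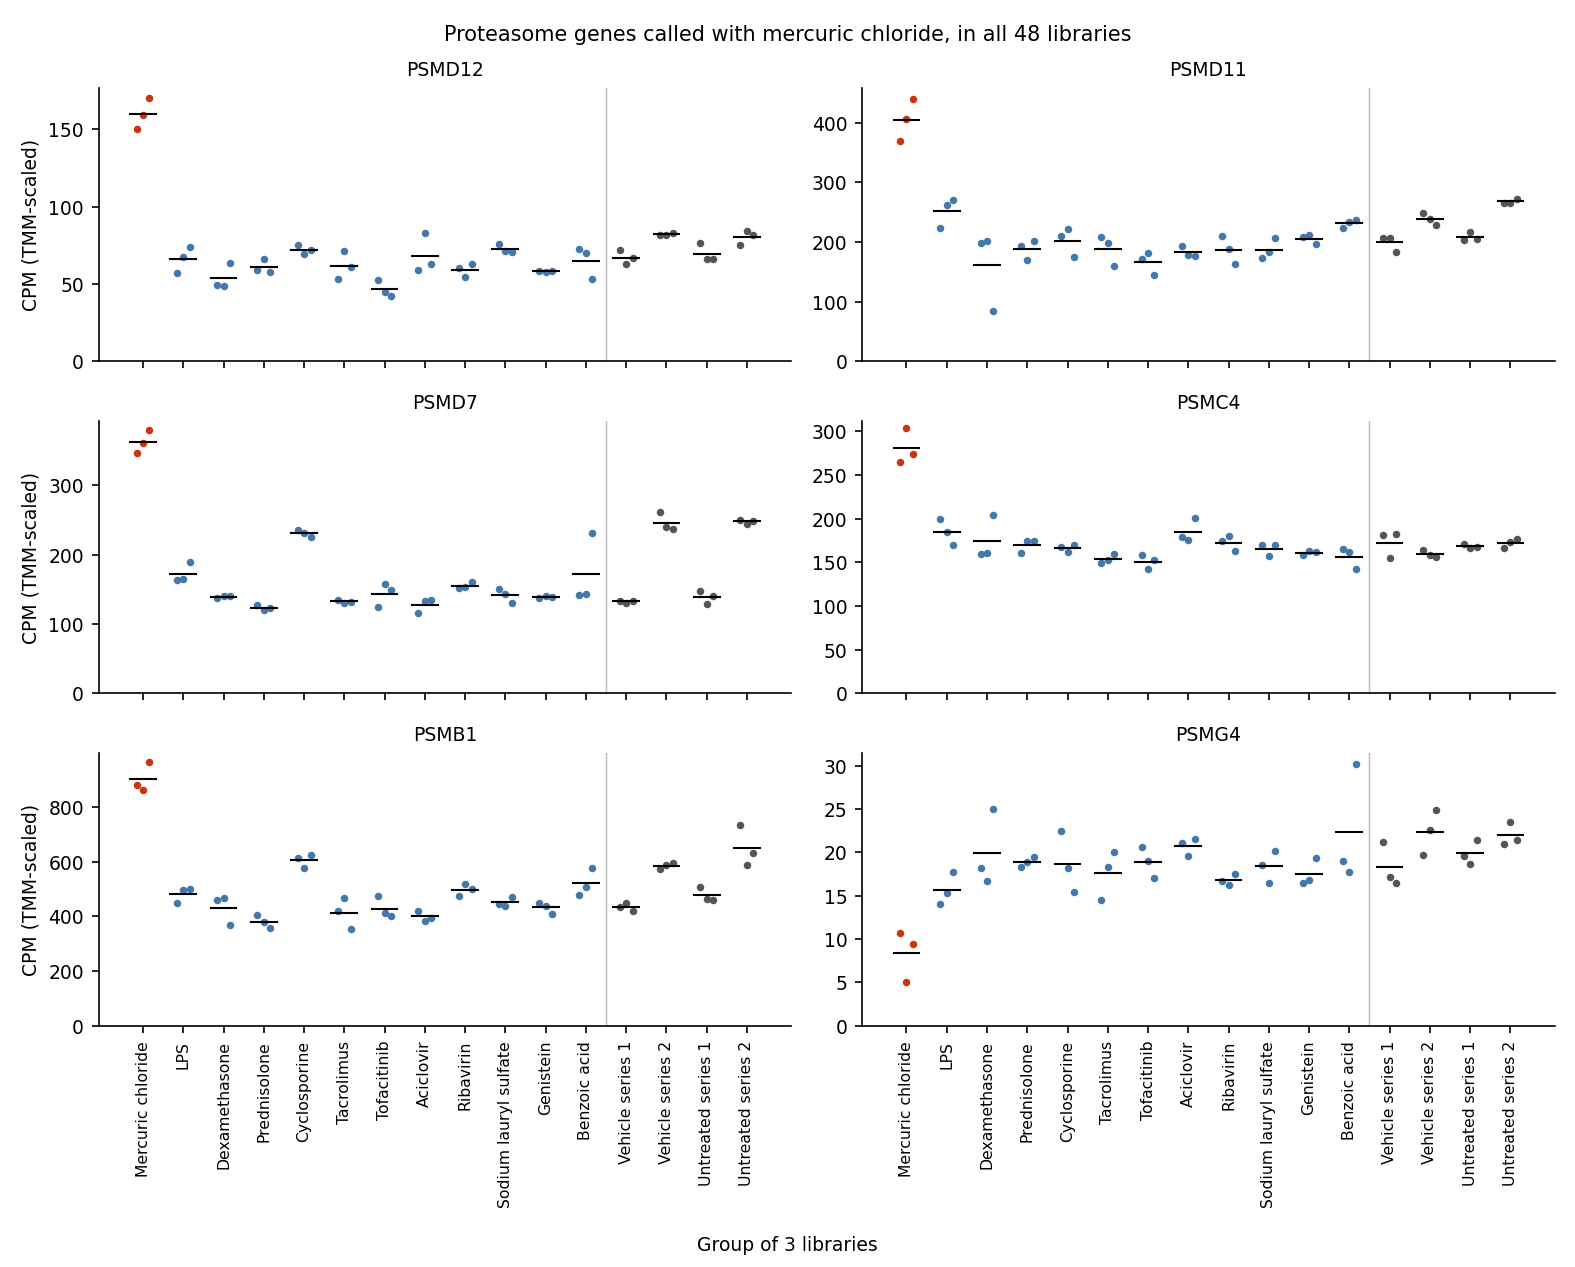
Levels in CPM (y axis, from 0) of PSMD12, PSMD11, PSMD7, PSMC4, PSMB1 and PSMG4 in every library of the 16 groups (x axis, lines are means of 3). The mercuric chloride libraries (red) lie above all others in the first 5 panels and below all others for PSMG4, and PSMD7 and PSMB1 also show the step between the control series.

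LPS, which activates inflammatory genes in monocytes, changed no proteasome gene past the threshold, while 7.20% of all genes were called, 4.56% higher and 2.64% lower. At an unadjusted p under 0.05, edgeR had 3 of the 46 and 2159 of all 15642 genes. DESeq2 also called 0 proteasome genes. PSMB9 came closest, with 130, 136 and 104 CPM against 99.5, 104 and 102 CPM in series 1 and 87.8, 89.0 and 89.7 CPM in series 2 (log2 change 0.37, SE 0.08, adjusted p = 0.0887). In edgeR tests against each series alone, PSMB9 had 0.28 (adjusted p = 0.0488) from series 1 and 0.47 (adjusted p = 2.7e-04) from series 2. The third library touched the vehicle range, and without it PSMB9 was called (0.49, adjusted p = 0.0103). PSMB8 was at -0.06, PSME1 at 0.17 and PSME2 at -0.07, and PSMB10 was at -0.28 with all 3 libraries, 150, 143 and 148 CPM, below the vehicle libraries (adjusted p = 0.355). PSMB5, PSMB6 and PSMB7 had 0.11, 0.03 and -0.39. For 36 of the 46 genes the 95% intervals against both series lay within a 1.5-fold change, and for 44 within a 2-fold change. In the same libraries 4 of 11 genes of class I antigen processing rose, among them TAP1 by 1.02, TAPBP by 0.87 and B2M by 0.56, and of the regulators NFE2L2 rose by 1.15.

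**Figure D5:**
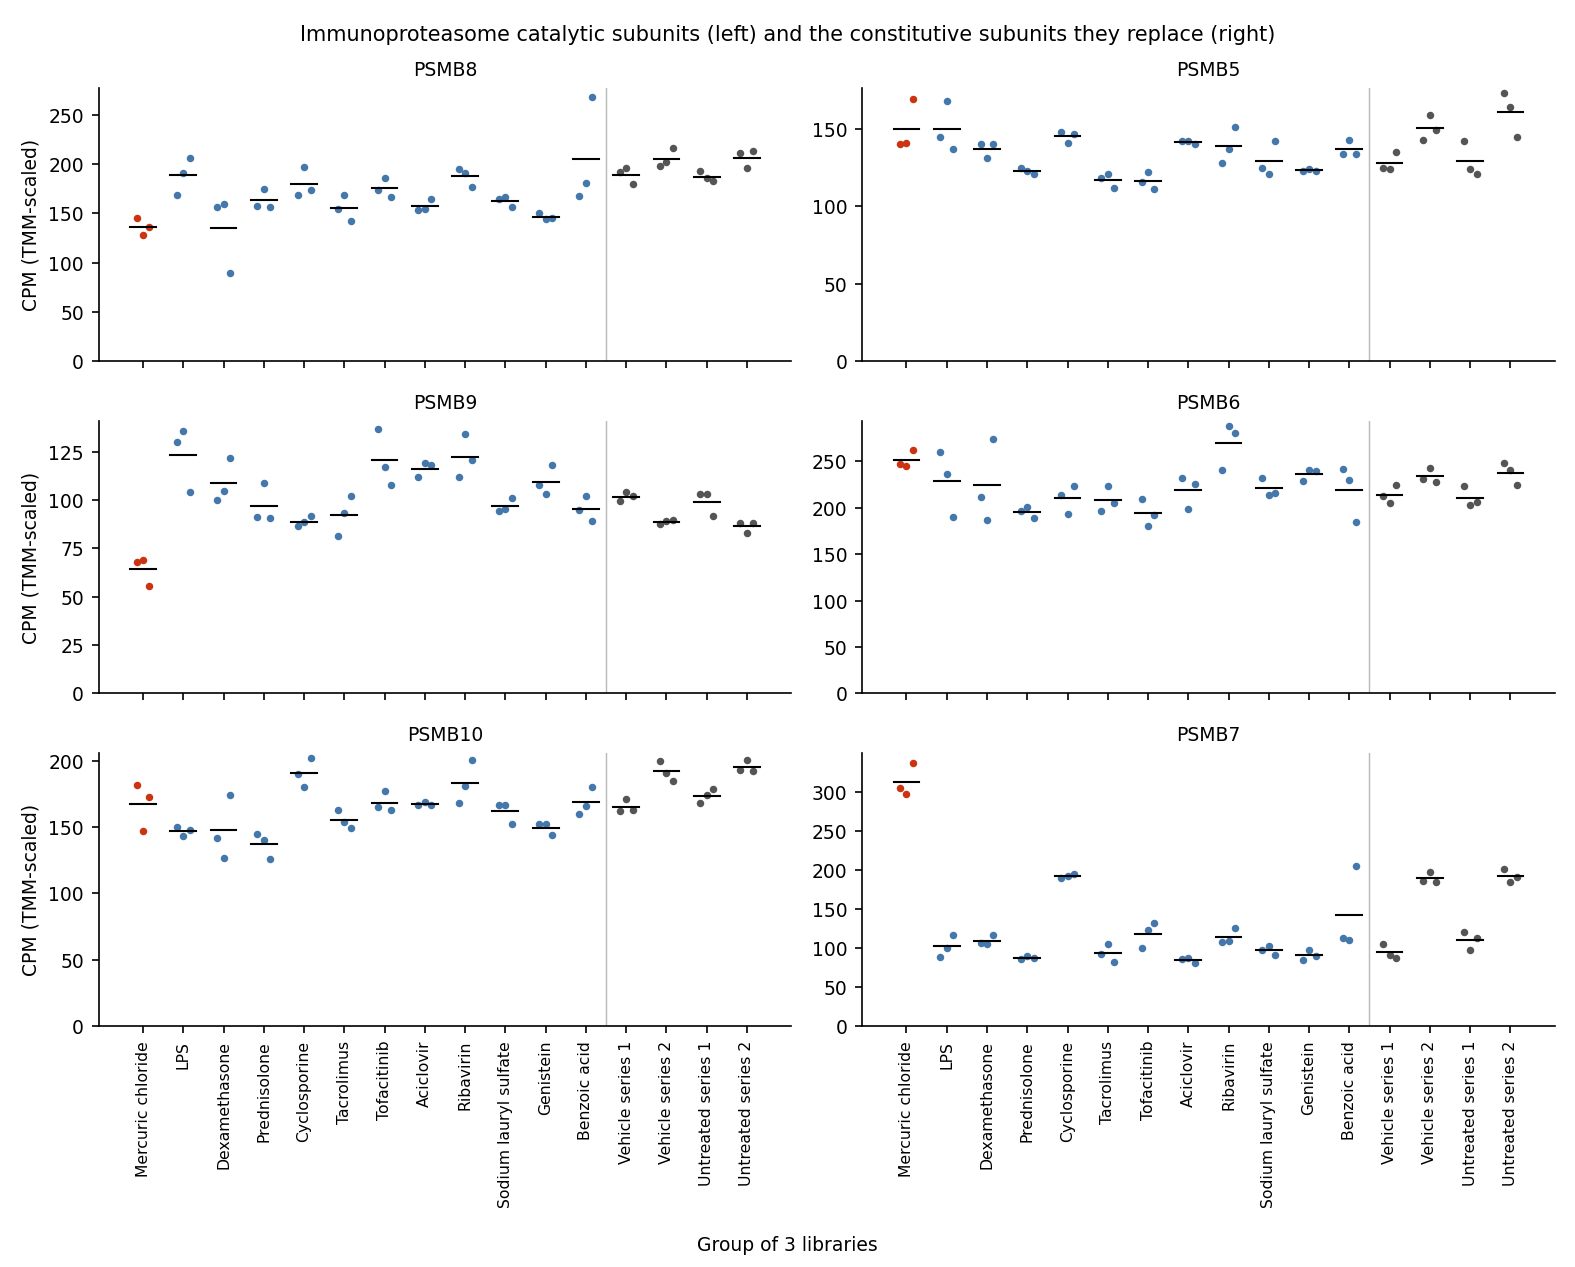
Levels in CPM (y axis, from 0) of the immunoproteasome subunits PSMB8, PSMB9 and PSMB10 (left) beside the constitutive PSMB5, PSMB6 and PSMB7 (right) in every library of the 16 groups (x axis, lines are means of 3). PSMB9 is lowest with mercuric chloride at 55.5 to 68.9 CPM, and PSMB7 is highest there at 298 to 337 CPM and otherwise splits between the control series.

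With dexamethasone, 4 genes fell and none rose, beside 8.57% of all genes called, 3.58% lower and 4.99% higher. PSMB8 had 157, 160 and 89.0 CPM against vehicle levels of 180 to 216 CPM (log2 change -0.54, SE 0.11, adjusted p = 0.00834). PSMA5 of the alpha ring had 69.6, 62.9 and 29.0 CPM against 72.0 to 92.3 CPM (-0.57, adjusted p = 0.0424). PSMB3 of the beta ring had 97.6, 85.2 and 33.9 CPM against 100 to 118 CPM (-0.57, adjusted p = 0.0392). PSMD6 of the lid had 21.3, 27.4 and 21.8 CPM against 29.9 to 37.3 CPM (-0.51, adjusted p = 0.0412). In the first 3 the third library was far below the other two. Without it none of the 4 passed (PSMB8 at -0.31, adjusted p = 0.211), and PSMB10 (-0.41, adjusted p = 0.0186) and PSMD12 (-0.59, adjusted p = 0.0189) were called lower in their place. With all libraries PSMB10 was at -0.27, PSMB9 at 0.20, PSME1 at -0.14, PSME2 at -0.45, PSMB5 at -0.02, PSMB6 at 0.00 and PSMB7 at -0.28, and none of these passed. TAP1 rose by 0.45 and TAPBP by 0.33 in the same comparison, CALR fell by 0.49, UBQLN1 rose by 0.36 and USP14 fell by 0.32. Leaving out any 1 of the 6 vehicle libraries left 1 called gene, and leaving out dexamethasone replicate 2 gave 9. Shares of all genes called in fits with a library left out are not given here, so these counts cannot be set against them.

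Prednisolone, the other glucocorticoid, changed no proteasome gene past the threshold, beside 1.96% of all genes called, 1.33% higher and 0.633% lower. At an unadjusted p under 0.05, edgeR had 6 of the 46 and 1191 of all 15642 genes. DESeq2 also called 0 proteasome genes. The lowest adjusted p-values among immunoproteasome genes were those of PSME2, with 64.8, 65.8 and 73.6 CPM (-0.63, adjusted p = 0.119), and PSMB10, with 145, 140 and 126 CPM (-0.38, adjusted p = 0.101), both with all 3 libraries below the 6 vehicle libraries. PSMB8 (-0.27), PSMB9 (0.03), PSME1 (-0.10), PSMB5 (-0.17), PSMB6 (-0.20) and PSMB7 (-0.62) did not pass. Set directly against prednisolone, dexamethasone was higher for 4 genes and lower for 2, beside 9.23% of all genes called, 5.48% higher and 3.75% lower. The 4 were PSMC1 (95.5, 99.7 and 123 CPM against 83.4, 85.6 and 73.7 CPM, 0.39), PSMC5 (106, 99.3 and 138 CPM against 83.0, 94.9 and 81.5 CPM, 0.41), PSMD4 (347, 351 and 501 CPM against 304, 337 and 290 CPM, 0.36) and PSMA4 (216, 201 and 224 CPM against 161, 175 and 164 CPM, 0.36). PSMA5 (prednisolone 72.4, 78.7 and 75.9 CPM, -0.50) and PSMD6 (30.6, 31.2 and 31.9 CPM, -0.41) were lower. PSMB5 (0.15), PSMB6 (0.20), PSMB7 (0.33), PSMB8 (-0.27), PSMB9 (0.17), PSMB10 (0.11), PSME1 (-0.04) and PSME2 (0.18) did not pass. Without dexamethasone replicate 3 none of the 46 passed, and without replicate 2 of dexamethasone 15 did. The shares of all genes called in these 2 fits are not given here.

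Tofacitinib, which blocks the kinases that carry interferon signals, gave 1 call. PSMD12 had 52.3, 44.8 and 42.2 CPM against 71.9, 62.5 and 66.6 CPM in series 1 and 81.5, 81.8 and 82.6 CPM in series 2 (log2 change -0.67, SE 0.11, adjusted p = 0.00661). All 3 libraries lay below vehicle, and 2.32% of all genes were called, 1.23% lower and 1.09% higher. The call was lost without tofacitinib replicate 3 or vehicle series 1 replicate 1. None of the immunoproteasome genes passed: PSMB8 was at -0.16, PSMB9 at 0.35 (137, 117 and 108 CPM, adjusted p = 0.273), PSMB10 at -0.08, PSME1 at -0.07 and PSME2 at -0.17, and the constitutive PSMB5, PSMB6 and PSMB7 were at -0.25, -0.21 and -0.17.

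The other 7 treatments had no called proteasome gene by edgeR or DESeq2. Of all genes, 0.831% were called with cyclosporine (0.703% higher, 0.128% lower), 0.307% with sodium lauryl sulfate (0.281% and 0.0256%) and 0.237% with aciclovir (0.0703% and 0.166%). Genistein had 0.237% (0.0511% higher, 0.185% lower), ribavirin 0.147% (0.0767% and 0.0703%), tacrolimus 0.0575% (0.0256% and 0.0320%) and benzoic acid 0.0320% (0.0256% and 0.00639%). At an unadjusted p under 0.05 the counts of proteasome genes were 1 for cyclosporine, 2 each for aciclovir, genistein, ribavirin and tacrolimus, and 0 for sodium lauryl sulfate and benzoic acid. Of all 15642 genes the counts were 803 for cyclosporine, 856 for aciclovir, 822 for genistein, 909 for ribavirin and 420 for tacrolimus. Sodium lauryl sulfate had 485 and benzoic acid 181. In the immunoproteasome set PSMB8 had log2 changes of -0.43 with genistein (adjusted p = 0.401), -0.34 with tacrolimus, -0.32 with aciclovir and -0.28 with sodium lauryl sulfate, and PSMB9 had 0.36 with ribavirin (adjusted p = 0.5), 0.29 with aciclovir and 0.21 with genistein. None of these passed. PSMB7 was the gene with the largest log2 change in 5 of these treatments, at -0.66 with aciclovir, -0.56 with genistein, -0.53 with tacrolimus, -0.46 with sodium lauryl sulfate and 0.53 with cyclosporine. It depended on the vehicle series, being -0.16 and -1.17 against series 1 and 2 with aciclovir and 1.03 and 0.02 with cyclosporine. Benzoic acid replicate 3 departed from its partners in many of these genes, with PSMB7 at 205 CPM beside 113 and 110 CPM, PSMD7 at 232 CPM beside 142 and 143 CPM and PSMD3 at 205 CPM beside 408 and 391 CPM. Without it benzoic acid had no called proteasome gene either, and the share of all genes called in that fit is not given here.

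The control series differed from each other in many of these genes. Of the 46, 21 were higher and 3 lower in the 6 vehicle and untreated libraries of series 2 than in the 6 of series 1, beside 30.1% of all genes called, 15.0% higher and 15.2% lower. Those higher in series 2 were 10 of 17 cap genes, 6 of 14 constitutive 20S genes 2 of 5 immunoproteasome genes, 2 of 7 assembly chaperones and PSMF1, with a median log2 difference of 0.19 over the 46 genes and -0.03 over all genes. What the series stand for is not stated in the labels.

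PSMB7 ran from 86.3 to 120 CPM in series 1 (median 101) and from 185 to 201 CPM in series 2 (median 188), a log2 difference of 0.91 (SE 0.09, adjusted p = 2.13e-10). PSMD7 ran from 129 to 148 CPM (median 134) and from 237 to 261 CPM (median 247), a difference of 0.86 (SE 0.07, adjusted p = 9.53e-13). The series did not overlap in either gene. Further large differences were PSMC3 (0.59), PSMD1 (0.55), PSME2 (0.55), PSMA4 (0.53), PSMC5 (0.53), PSMB1 (0.44) and PSMA3 (0.42). PSMC3 ran from 94.2 to 127 CPM (median 106) in series 1 and from 152 to 172 CPM (median 160) in series 2. PSMA4 ran from 185 to 229 CPM (median 201) and from 277 to 320 CPM (median 300), and PSME2 from 82.0 to 88.6 CPM (median 87.0) and from 121 to 129 CPM (median 128). None of these overlapped. Nor did PSMD1 (145 to 177 and 220 to 274 CPM), PSMC5 (87.4 to 97.2 and 119 to 141 CPM), PSMB1 (420 to 507 and 573 to 733 CPM) or PSMA3 (100 to 115 and 130 to 163 CPM). Smaller ones were PSMC1 (0.34), PSMF1 (0.32), PSMA7 (0.31), PSMD11 (0.31), PSMC2 (0.31), PSMB5 (0.27), PSMD12 (0.25), PSMD4 (0.24), PSMG1 (0.24), PSMG3 (0.24), PSMD8 (0.23) and PSMB10 (0.19). Of these, PSMA7 ran from 470 to 501 and from 571 to 673 CPM, PSMC1 from 85.9 to 90.2 and from 102 to 124 CPM, PSMD11 from 184 to 217 and from 228 to 272 CPM, and PSMB5 from 121 to 142 and from 143 to 173 CPM. PSMB10 ran from 162 to 179 and from 185 to 201 CPM, whereas PSMF1 (28.9 to 40.4 and 34.4 to 47.5 CPM), PSMG1 (39.6 to 49.6 and 48.4 to 59.6 CPM) and PSMG3 (105 to 125 and 124 to 158 CPM) overlapped. PSMB4 (296 to 343 and 253 to 281 CPM, -0.22), PSMD14 (185 to 220 and 169 to 186 CPM, -0.22) and PSMB9 (-0.20) were lower in series 2. PSMB9 ran from 91.7 to 104 CPM in series 1 and from 83.1 to 89.7 CPM in series 2. PSMB6 (0.15), PSMB8 (0.13) and PSME1 (0.07) did not pass. The ratio of immunoproteasome to constitutive catalytic counts was 1.05 ± 0.0635 and 1.03 ± 0.0682 in the vehicle and untreated libraries of series 1 and 0.848 ± 0.0386 and 0.830 ± 0.0476 in those of series 2 (SD, n = 3 each). Of the 16 partners, 6 were higher in series 2, among them ADRM1 (0.75), KIAA0368 (0.57), POMP (0.42) and SHFM1 (0.38), and RAD23B was lower (-0.21). Of the 10 regulators, UFD1L (0.65), VCP (0.34) and NFE2L1 (0.27) were higher and NGLY1 (-0.41) and NFE2L2 (-0.33) lower, with a list median of -0.15.

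Vehicle against untreated libraries over both series gave 0 called proteasome genes and 0 called genes of 15642 by edgeR, with 2 proteasome genes and 463 of all genes at an unadjusted p under 0.05. The change from untreated to vehicle did not differ between the series for any gene after adjustment, with 0 proteasome genes and 514 of all genes at an unadjusted p under 0.05.

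Some treatments had called proteasome genes against only 1 of the vehicle series. LPS, dexamethasone, tofacitinib, benzoic acid and mercuric chloride had called genes against each series alone. Against vehicle series 1 alone, cyclosporine had 14 proteasome genes higher and 2 lower, beside 24.1% of all genes (12.5% higher, 11.6% lower). Against series 2 alone cyclosporine had none, beside 1.39%. Its PSMB7 was at a log2 change of 1.03 from series 1 and 0.02 from series 2, and its PSMD7 at 0.80 and -0.09. Prednisolone, tacrolimus, aciclovir, ribavirin, sodium lauryl sulfate and genistein had the reverse. No proteasome gene was called against series 1 alone, beside 0.237 to 3.67% of all genes. Against series 2 alone 13 to 22 were called, most of them lower, beside 16.9 to 26.6% of all genes. Of all genes, 8.18 to 13.1% were higher there and 8.66 to 13.4% lower. For PSMB7, cyclosporine was at 192 ± 2.78 CPM, vehicle series 2 at 189 ± 6.95 CPM and vehicle series 1 at 94.0 ± 9.58 CPM (SD, n = 3 each). Prednisolone was at 86.8 ± 1.85, aciclovir at 84.2 ± 3.24 and genistein at 90.3 ± 6.91 CPM. Mercuric chloride, at 313 ± 21.0 CPM, was beyond both series.

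The measurement has limits for single genes. In GENCODE 29 the exons of 12 of the 48 genes overlap exons of another gene listed in the files, 10 of them on the opposite strand, and no source used here says whether counting used strand. These include PSMB8 and PSMB9 with the noncoding PSMB8-AS1, PSMC1 with NRDE2, PSMD13 with SIRT3, PSMG2 with CEP76 and PSME2 with RNF31. If counting ignored strand, reads in the shared exons of such pairs cannot be told apart. For pairs on the same strand this holds in either case.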

How the data were processed

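RNA from THP-1 cells was sequenced in 48 libraries made, per the labels, with a Lexogen Quant-Seq kit. The deposited files hold the authors' whole-number counts per gene symbol. Per the submitters' processing notes Bowtie2, bedtools and hg19 (GRCh37) were used, while annotation and strand setting are not stated. Rows of the same symbol were summed (286 symbols, 1.36% of counts), and PSMB8 and PSMB9 each had all counts on 1 of their rows.

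Counts were fitted with edgeR 4.0.16 (R 4.3.3): filterByExpr, TMM scaling, 16 groups in 1 quasi-likelihood fit (32 residual degrees of freedom). Treatments were contrasted with each vehicle series. The larger p was kept where signs matched and p was set to 1 elsewhere, followed by Benjamini-Hochberg adjustment over all 15642 genes. A log2 change is the mean over both series, and its SE does not cover the difference between series. Expression levels other than those of cell type markers are CPM of TMM-scaled libraries. No level is compared between genes, since the kit affects it. The code was tested on simulated data.

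Members, gene lists and tests were chosen with earlier results of these data known. The text names the immunoproteasome and catalytic subunits in the comparisons described, up to 3 called genes per subgroup and direction with their libraries or range, and up to 4 called genes of each other list. Some genes of those lists are not reported here. The labels do not state that replicate libraries came from separate cultures, so p-values reflect only the spread among them, which may be technical. The 48 pairs within groups differed by more than counting error (chi-square per degree of freedom 2.13 to 43.1), and each library counted as 1 replicate. Alternatives were median-of-ratios scaling, library totals, DESeq2 1.42.0, no filter, 1 row per symbol, a replicate block, smaller fits and libraries left out. Depth of 5952817 to 11496950 counts limits genes such as PSMG4 and PSMD10.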

Additional observations from a re-analysis of the deposited data

How the results depend on the processing

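In all 17 comparisons, median-of-ratios scaling, DESeq2, library totals, no filter, 1 row per symbol and the replicate block kept the number of called proteasome genes, over both directions, within 1.5 times. Library totals moved the split for mercuric chloride from 14 higher and 6 lower to 7 and 16, against LPS from 22 and 6 to 8 and 20, and against cyclosporine from 18 and 4 to 8 and 21. Shares of all genes called with library totals are not given here. With the block, mercuric chloride had 20 called genes as before. The replicate numbers did not pair the libraries: over 360 same-numbered pairs the correlation of deviations ran from -0.15 to 0.21 and 11 of 48 libraries were closest to their own number. Fitting the compared groups alone gave 1 called gene for LPS, cyclosporine, tacrolimus and aciclovir each, 2 for genistein, 5 for prednisolone and for tofacitinib, and 0 for dexamethasone against vehicle and against prednisolone. Shares of all genes called in these smaller fits are not given here. Vehicle series 1 alone gave 5 for LPS, 13 for dexamethasone and 16 for cyclosporine, beside 15.2, 21.4 and 24.1% of all genes called. It gave 6 for tofacitinib, 4 for benzoic acid and 32 for mercuric chloride, beside 11.0, 2.21 and 57.4%. Vehicle series 2 alone gave 18 for LPS, 22 for dexamethasone and 22 for prednisolone, beside 24.1, 30.2 and 25.2% of all genes called. Tacrolimus and aciclovir had 21 each (18.1 and 26.6% of all genes), tofacitinib 20 (18.9%) and genistein 19 (20.5%). Sodium lauryl sulfate had 15 (17.9%), ribavirin 13 (16.9%) and benzoic acid 6 (5.33%). With 1 library left out, the counts ran from 16 to 20 for mercuric chloride against vehicle. They ran from 26 to 29 for mercuric chloride against LPS and from 18 to 22 against cyclosporine. Between control series they ran from 21 to 24, for dexamethasone from 1 to 9 and for dexamethasone against prednisolone from 0 to 15. For LPS and for tofacitinib they ran from 0 to 1. Shares of all genes called with a library left out are not given here. With library totals, signs turned among the genes called with TMM for PSMD14 (-0.00) with mercuric chloride; for PSMA7 (-0.13), PSMC2 (-0.07), PSMD14 (-0.15), PSMD2 (-0.06), PSME4 (-0.07) and PSMF1 (-0.09) against LPS; and for PSMB4 (-0.13), PSMB6 (-0.10), PSMC2 (-0.01), PSMD2 (-0.08) and PSME1 (-0.17) against cyclosporine. Genes that were not called are not counted here. Library totals put the median of all genes with mercuric chloride at -0.41. The cause was not tested.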
